A study of Mus musculus with 21 samples.

Results

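The genes described here write, copy and remove methyl groups on cytosine in DNA. They are the DNA methyltransferases Dnmt1, Dnmt3a and Dnmt3b, the ring-finger protein Uhrf1 that brings Dnmt1 to newly copied DNA, and the dioxygenases Tet1, Tet2 and Tet3. Members were chosen by symbol, from array probes whose RefSeq accession belongs to 1 of these 7 genes. This rule itself uses no measured value, but it was set with earlier results of these data known. Of the 7 genes, 6 had a matched probe, with 12 probes in all (Dnmt1 and Dnmt3b 1 each, Tet2 and Uhrf1 2 each, Dnmt3a and Tet3 3 each), out of 41174 probes and 18217 named genes on the array. Tet1 had no matched probe and was not analysed here. Where a gene had several probes, the brightest over all arrays gave the main value.

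Methylation of cytosine in CpG pairs is copied at each cell division, when Uhrf1 recognises the hemimethylated site and Dnmt1 methylates the new strand. Dnmt3a and Dnmt3b place methyl groups on sites that had none, and the Tet enzymes oxidise 5-methylcytosine, after which the base can be lost through replication or cut out by base excision repair. In blood formation Dnmt3a, Dnmt3b and Tet2 are known for their roles in stem cell self-renewal and differentiation, and DNMT3A and TET2 are among the genes most often mutated in human myeloid disease.

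Transcript levels were measured on 1-colour whole-genome arrays in 7 sorted fractions of C57BL/6 mouse bone marrow, with 3 arrays each and 21 in all. KLS cells lack lineage markers, carry Kit and Sca1 and include the multipotent progenitors. On the erythroid side came PreMegE (CD150 positive, CD105 negative, Fc gamma receptor negative), CFUe (CD150, CD105 and Fc gamma receptor negative) and Ter119 (CD71 and Ter119 positive), and on the myeloid side PreGM (CD150, CD105 and Fc gamma receptor negative), GMP (CD150 negative, Fc gamma receptor positive) and Mac1Gr1 (Mac1 and Gr1 positive). The labels write the receptor as FGCrI/II or FCGrI/II, list Sca1 as positive for every intermediate fraction, and give CFUe and PreGM the same surface markers, so those 2 are told apart by name and by their transcripts alone. The labels name no allele, treatment or age. Nothing states whether the 3 arrays of a fraction came from separate animals or from pools, so that p-values measure the spread between these samples, which may be technical.

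The share of probes well above background lay between 56.3% and 77.4% per array. Erythroid markers set the Ter119 arrays apart, with a mean level of 5.59 to 5.97 over 9 genes against -2.69 to -2.17 in Mac1Gr1. CFUe, with 1.27 to 1.38, stood far above PreGM at -3.13 to -2.61. Granulocytic markers, however, were also high in Ter119: the mean level over 11 genes was 6.84 to 6.94, close to the 7.34 to 7.51 of Mac1Gr1, and 11 of 11 were well above background on every Ter119 array. B cell markers were highest in Ter119, at 2.50 to 2.93 over 8 genes. In KLS the macrophage list of 10 genes stood at 1.06 to 2.54, against -4.52 to -3.44 in PreMegE. Levels are log2 intensities relative to the 75th percentile of the same array, so that 0 marks the 75th percentile, and in these bulk samples fewer cells of a type and less RNA per cell cannot be told apart. The part of these other cell types in the results that follow was not tested.

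Directions are relative to each array's own 75th percentile. Scaling to the spike-in RNAs moved the median of all tested probes to -1.33 from 0.05 for Ter119 against CFUe, to -1.86 from 0.18 for Mac1Gr1 against GMP and to 0.99 from -0.02 for GMP against PreGM. Among all called probes the share that was higher went from 51.1% to 19.6% in the first of these, from 51.3% to 8.40% in the second and from 38.6% to 96.5% in the third. The falls of Dnmt1, Dnmt3b and Uhrf1 from GMP to Mac1Gr1 and of Dnmt1 and Dnmt3b from CFUe to Ter119, described next, were called under either scaling. Arrays also differed in sex-chromosome transcripts. Xist was above the Y-linked genes on 3 of 3 arrays in GMP and Mac1Gr1 and on 2 of 3 in CFUe and PreGM. In KLS, PreMegE and Ter119 it was so on 0 of 3. Sex and fraction therefore cannot be told apart between KLS, PreMegE or Ter119 and either GMP or Mac1Gr1. This includes GMP against KLS, Mac1Gr1 against KLS and Ter119 against Mac1Gr1. A block for this split of the arrays rests on CFUe and PreGM alone, the only fractions with arrays of both kinds.

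Uhrf1, which brings the maintenance enzyme to replicated DNA, was at least 2.79 lower on the log2 scale in the mature myeloid cells than in any other fraction. Its levels in replicates 1 to 3 were 3.83, 3.81 and 3.82 in KLS, 3.75, 3.59 and 3.73 in PreMegE, 4.50, 4.51 and 4.85 in CFUe, and 3.63, 3.71 and 3.91 in Ter119. On the myeloid side they were 4.07, 4.01 and 4.18 in PreGM, 4.03, 4.10 and 4.24 in GMP, and 0.73, 0.95 and 1.02 in Mac1Gr1. All CFUe arrays lay above all other arrays and all Mac1Gr1 arrays below them, with no overlap, although with spike-in scaling CFUe was lower than GMP (-0.88) and than KLS (-0.18), and with the slide as a block the difference from GMP was 0.43 (adjusted p = 0.116). From GMP to Mac1Gr1 the level fell by 3.23 on the log2 scale (SE 0.12, 9.36-fold, adjusted p = 2.00e-13), and the second probe gave -3.56. The higher level in CFUe than in PreMegE, 0.93 (SE 0.12, adjusted p = 4.54e-06), and the lower one in Ter119 than in CFUe, -0.87 (adjusted p = 3.14e-06), were under 2-fold at the brightest probe. The lower level in Ter119 was called at the second probe (-1.08), with normexp background (-1.01), with the sex-chromosome block (-1.03) and with spike-in scaling (-2.25), and was -0.38 after quantile scaling. The higher level in CFUe was called with the sex-chromosome block (1.09), and was 0.48 after quantile scaling and 0.41 with spike-in scaling (adjusted p = 0.246). In the order of means only CFUe over GMP (difference 0.50, adjusted p = 0.00187) and PreMegE over Mac1Gr1 (2.79) differed among neighbours. GMP, PreGM, KLS, Ter119 and PreMegE, at 4.12 to 3.69, formed a run in which no neighbouring pair differed. Pairs further apart in it could differ, as PreMegE against PreGM did (-0.40, adjusted p = 0.0179 in limma). With the slide as a block that difference was -0.37 (adjusted p = 0.153).

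Dnmt1, the methyltransferase that copies the methylation pattern, had means of 2.01 to 2.21 in the 5 progenitor fractions and 0.99 and -0.22 in the mature ones. The array values were 1.91, 1.88 and 2.25 in KLS, 1.99, 2.28 and 2.03 in PreMegE, 2.08, 2.13 and 2.19 in CFUe, 2.19, 1.84 and 2.31 in PreGM, and 2.26, 2.36 and 2.01 in GMP. In Ter119 they were 0.86, 1.21 and 0.90, and in Mac1Gr1 -0.47, -0.16 and -0.03. The progenitor arrays overlapped one another, and every array of a mature fraction lay below all 15 of them. Dnmt1 fell by 1.14 on the log2 scale from CFUe to Ter119 (SE 0.16, 2.21-fold, adjusted p = 4.48e-06), although the difference was under 2-fold after quantile scaling (-0.79) and in the authors' series table (-0.85). From GMP to Mac1Gr1 it fell by 2.43 (SE 0.16, 5.38-fold, adjusted p = 2.93e-10). For the 4 neighbouring pairs among the progenitors the differences in mean were at most 0.09, with 95% intervals such as -0.25 to 0.42 for PreMegE against KLS. With spike-in scaling, however, GMP was called higher than PreGM (1.11) and CFUe lower than GMP (-1.46, adjusted p = 0.000105).

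**Figure D1:**
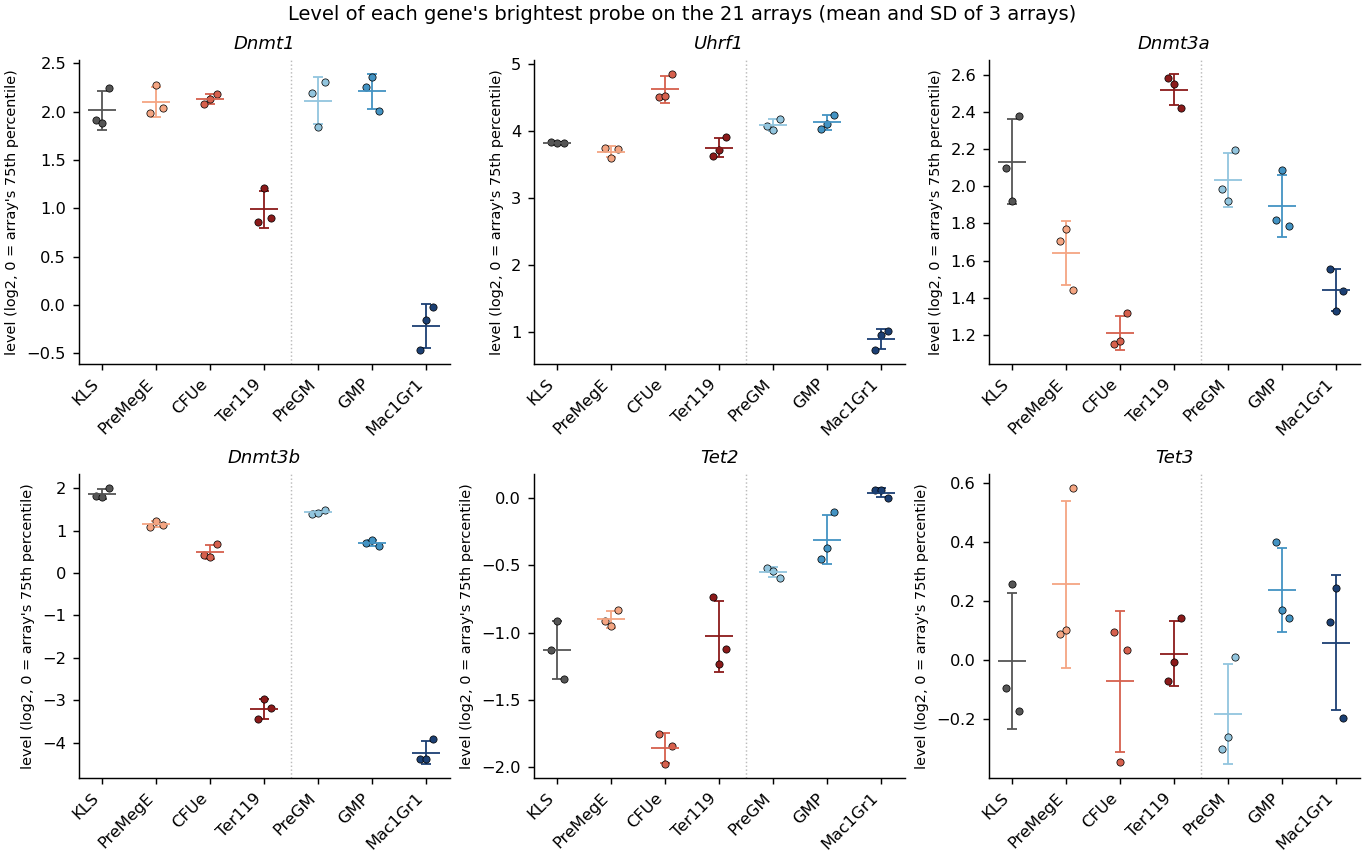
Level of each gene's brightest probe in the 7 fractions, on the log2 scale with 0 at the array's 75th percentile. Points are the 21 arrays, the long bar is the mean of 3 arrays and the error bar its SD; erythroid fractions stand left of the dotted line and myeloid ones right of it. Dnmt3b spans the widest range, from a mean of 1.87 in KLS to -4.23 in Mac1Gr1, while Tet3 stays between -0.18 and 0.26.

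Dnmt1 and Uhrf1 were also the members with an E2F motif near a start site, E2F being the factor family that drives genes of DNA replication. The RefSeq promoter table of build GRCm38.p6 held a window of 250 bases before to 50 after each start, and all 7 genes matched, with 12 windows. The letters TTTGGCGC, TTTCCCGC and TTTCGCGC were searched on both strands; none of the 3 is contained in another. Of all 32851 windows 606 (1.84%) held at least 1 of them, and of the 12 windows of these genes 2 did. The stretches of 30 bases around the matches are shown because they hold every match found in the 12 windows, with the motif in capitals (GCGCGAAA is TTTCGCGC read on the other strand). They lie at chr9:20952824-20952853 and chr9:20952574-20952603 on the minus strand for Dnmt1, where the motifs themselves begin 219 bases before and 33 after the start, and at chr17:56304117-56304146 on the plus strand for Uhrf1, where the motif begins 185 bases before it.
Dnmt1, before the start: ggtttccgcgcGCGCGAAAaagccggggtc
Dnmt1, after the start: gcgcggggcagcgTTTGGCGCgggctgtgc
Uhrf1, before the start: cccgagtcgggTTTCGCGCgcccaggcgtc
A match is a description of letters and not a binding site. The GATA motif AGATAAG, present in 3.04% of all windows, was in none of the 12. The number of CpG pairs per window ran from 2 at 1 start of Dnmt1 to 57 at Tet2, against a median of 7 over all windows. Of all windows 99.8% held fewer than that of Tet2. The 2 windows with an E2F match held 33 each, so that 1.84% is not a share among windows of like CpG content.

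Dnmt3b, a de novo methyltransferase, had the widest range of the 6 genes. Its arrays read 1.81, 1.80 and 2.004 in KLS, 1.08, 1.23 and 1.14 in PreMegE, 0.42, 0.37 and 0.68 in CFUe and -3.45, -2.98 and -3.18 in Ter119. The myeloid arrays read 1.40, 1.42 and 1.48 in PreGM, 0.70, 0.77 and 0.63 in GMP and -4.39, -4.38 and -3.92 in Mac1Gr1, where 2 of 3 arrays were well above background. Along both lineages each fraction lay wholly below the one before it. Between KLS and CFUe Dnmt3b fell by 1.38 (SE 0.14, 2.59-fold, adjusted p = 2.21e-07), and between KLS and GMP by 1.17 (SE 0.14, 2.25-fold, adjusted p = 3.41e-06). The single steps within the progenitors were between -0.44 and -0.73, each with an adjusted p under 0.05 and under 2-fold. With spike-in scaling 3 of these 4 were called, at -1.18 for PreMegE against KLS, -1.17 for CFUe against PreMegE and -1.05 for PreGM against KLS, while GMP against PreGM was 0.28. With the slide as a block PreGM against KLS was -0.59 (adjusted p = 0.0810), and no slide held KLS with PreMegE or PreGM. In KLS the macrophage markers were also high, as given above. The last steps were far larger: Dnmt3b fell by 3.69 from CFUe to Ter119 (SE 0.14, 12.9-fold, adjusted p = 3.52e-13) and fell by 4.93 from GMP to Mac1Gr1 (SE 0.14, 30.5-fold, adjusted p = 1.70e-14). These sizes depend on how the background of a dim probe was treated: with normexp background the falls were -2.17 (4.49-fold, adjusted p = 1.09e-13) and -2.91 (7.54-fold, adjusted p = 1.03e-15). From KLS to Mac1Gr1 the means spanned, without normexp, 6.10, or 68.7-fold, a wider range than that of 93.7% of the 29538 probes tested. Its fall from KLS to GMP was not called with spike-in scaling (-0.77) or with the sex-chromosome split of the arrays as a block (-0.99).

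Dnmt3a, the other de novo enzyme, gave a different picture at each of its 3 probes. The brightest probe read 2.10, 1.92 and 2.38 in KLS, 1.71, 1.77 and 1.44 in PreMegE, 1.15, 1.16 and 1.32 in CFUe and 2.59, 2.55 and 2.42 in Ter119. It read 1.99, 1.92 and 2.20 in PreGM, 1.82, 2.09 and 1.78 in GMP and 1.55, 1.33 and 1.44 in Mac1Gr1. Ter119 was the highest fraction and did not overlap any other, and CFUe was the lowest and did not overlap any other. In the order of means only Ter119 over KLS differed among neighbours (0.39, adjusted p = 0.0154 in limma). CFUe did not differ from Mac1Gr1, the next above it (0.23, adjusted p = 0.132). From CFUe to Ter119 this probe rose by 1.31 (SE 0.13, 2.48-fold, adjusted p = 1.08e-07), with -0.07 after spike-in scaling. At the second probe the same step gave -0.26 (SE 0.16, adjusted p = 0.131), and the third probe fell by 1.17 (SE 0.13, adjusted p = 3.29e-07). The probes differed in their annotation as well. The brightest is assigned to the RefSeq transcript of a shorter isoform and the other 2 to that of the longer isoform. The files do not say which exons the probes read, so that isoforms were not resolved.

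**Figure D2:**
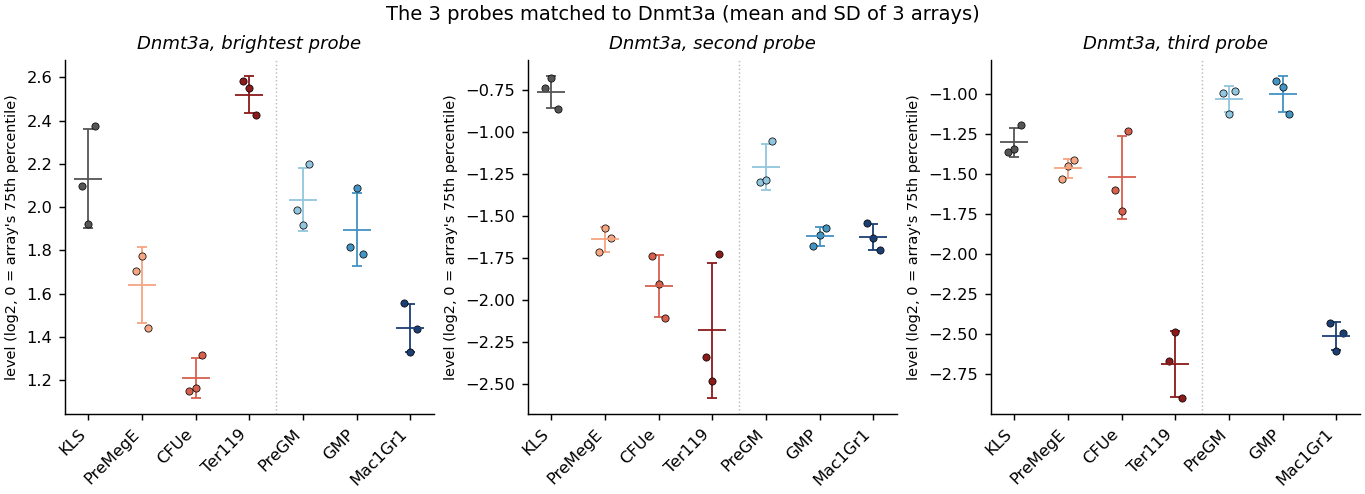
The 3 probes matched to Dnmt3a, each panel with its own log2 axis (0 = the array's 75th percentile); points are arrays, bars the mean and SD of 3 arrays. In Ter119 the brightest probe has its highest mean, 2.52, and the other probes their lowest, -2.18 and -2.69.

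The second Dnmt3a probe was highest in KLS, at -0.74, -0.68 and -0.86, and next in PreGM, at -1.29, -1.28 and -1.05. All other arrays lay below these 6. The third probe was highest in GMP and PreGM, with means of -0.999 and -1.03, and lowest in Ter119 and Mac1Gr1, with -2.69 and -2.51. Its fall from GMP to Mac1Gr1 was 1.51 on the log2 scale (SE 0.13, adjusted p = 1.16e-08), against -0.46 at the brightest probe and -0.00 at the second. Over the 21 arrays the third probe ran with Dnmt3b (r = 0.92) and the brightest did not (r = -0.02); the arrays share fractions, so that r is only a description. Within the 15 progenitor arrays, however, the brightest probe and Dnmt3b had r = 0.76.

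Tet2, which oxidises methylcytosine, was lowest in CFUe and highest in Mac1Gr1. With spike-in scaling Mac1Gr1 turned lower than GMP (-1.68) and Ter119 turned lower than CFUe (-0.55, not called). The arrays read -1.13, -0.91 and -1.35 in KLS, -0.92, -0.95 and -0.84 in PreMegE, -1.76, -1.98 and -1.85 in CFUe and -0.73, -1.23 and -1.12 in Ter119. They read -0.52, -0.54 and -0.59 in PreGM, -0.45, -0.37 and -0.10 in GMP and 0.06, 0.06 and 0.00 in Mac1Gr1. At this brightest probe every myeloid array lay above every array of the other 4 fractions, and every CFUe array below all others. At the second probe the CFUe arrays were again below all others. There Ter119, at -1.02, -1.51 and -1.70, overlapped PreGM (-1.01, -1.23 and -1.20) and GMP (-1.46, -1.34 and -1.31). Tet2 was 2.94-fold lower in CFUe than in GMP (-1.55, SE 0.14, adjusted p = 4.53e-08). The step from PreMegE to CFUe, -0.96 (SE 0.14, adjusted p = 1.65e-05), stopped just short of 2-fold at the brightest probe, and the second probe fell by 1.01 (SE 0.15, adjusted p = 2.98e-05). Without CFUe replicate 1 the brightest probe, at -1.01, was past 2-fold too. In the order of means, Mac1Gr1 over GMP (0.35, adjusted p = 0.0282, but 0.32 and 0.0880 when slides were blocked) and KLS over CFUe (0.73, adjusted p = 0.000173) differed. The 4 neighbouring pairs between them did not. Pairs further apart did, such as GMP against KLS (0.82, adjusted p = 9.68e-05 in limma) and PreGM against KLS (0.58, adjusted p = 0.00496), both under 2-fold. With spike-in scaling these were 1.22 and -0.03. The 2 Tet2 probes had r = 0.91 over the 21 arrays.

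Tet3 differed little between fractions at its brightest probe. Its means ran from -0.18 in PreGM to 0.26 in PreMegE, all 21 arrays lay between -0.34 and 0.58, and no neighbouring pair in the order of means differed. The test over all 7 fractions gave an adjusted p of 0.188, and the range of means, 0.44, was wider than that of 0.237% of the probes tested. The other 2 Tet3 probes, however, differed over the fractions (adjusted p = 0.000120 and 0.000220), with their highest means in Ter119 and Mac1Gr1 (-0.93 and -0.92 at the second probe, -2.22 and -2.19 at the third). The second probe rose by 1.02 from CFUe to Ter119 (SE 0.19, adjusted p = 0.000131) and the third by 1.34 from GMP to Mac1Gr1 (SE 0.23, adjusted p = 5.55e-05), but these were -0.37 and -0.69 with spike-in scaling. Likewise the second Tet2 probe, at 1.32 from CFUe to Ter119 (adjusted p = 5.00e-07), was -0.06.

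Set against all probes, the 6 genes were not called more often than probes in general at any of the first steps. Called means at least 2-fold with an adjusted p under 0.05 in limma. None of the 6 was called in PreMegE against KLS, where 12.4% of tested probes were, in CFUe against PreMegE (24.7%), in PreGM against KLS (8.64%), in GMP against PreGM (10.4%) or in PreMegE against PreGM (12%). At an adjusted p alone the counts in that order were 2, 4, 2, 1 and 2, where 26.2%, 50.9%, 25.7%, 26.3% and 27.5% of probes passed. At the last step 3 of 6 were called on each side: in Ter119 against CFUe, where 57.2% of probes were (28% lower), Dnmt3a rose (-0.07 with spike-in scaling) and Dnmt1 and Dnmt3b fell, and in Mac1Gr1 against GMP, where 56.7% were (27.6% lower), Dnmt1, Dnmt3b and Uhrf1 fell. These shares lie near the background. From GMP to Mac1Gr1 9 of 11 granulocytic, 8 of 8 B cell and 9 of 10 macrophage genes rose too, and 1 granulocytic and 1 macrophage gene fell. Their part in the falls of the members was not tested. In CFUe against GMP only Tet2 was called (26.3% of probes), in CFUe against KLS (36.3%) and GMP against KLS (21.7%) only Dnmt3b. The test over all fractions called 5 of 6 genes, all but Tet3, and 94.7% of probes.

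**Figure D3:**
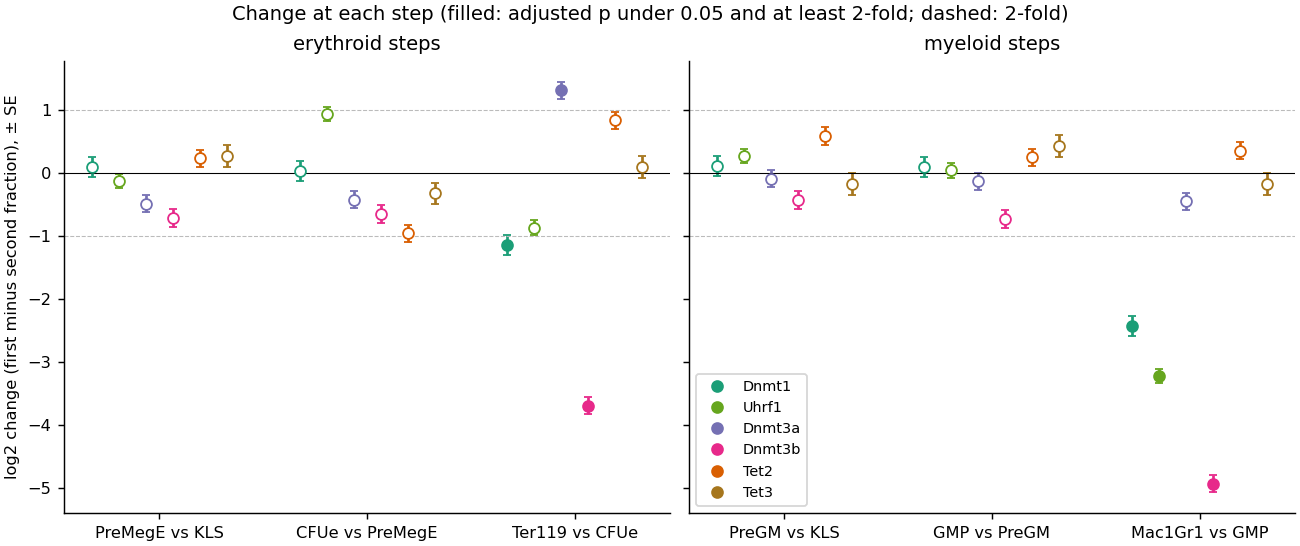
Log2 change with its SE at the 3 erythroid steps (left) and the 3 myeloid steps (right), for the brightest probe of each gene; filled points had an adjusted p under 0.05 and at least 2-fold, and dashed lines mark 2-fold. The largest changes are those of Dnmt3b at the last steps, -3.69 and -4.93, and the rise of Dnmt3a in Ter119, 1.31, is -0.07 with spike-in scaling.

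The mature fractions were compared with each other directly. Of the 6 genes 5 were called in Ter119 against Mac1Gr1, where 41.9% of probes were. Uhrf1 was higher in Ter119 by 2.85 (SE 0.12, 7.21-fold, adjusted p = 3.73e-12) and Dnmt1 by 1.20 (SE 0.16, 2.30-fold, adjusted p = 4.11e-06). Dnmt3a at its brightest probe was higher by 1.08 (2.11-fold, -0.56 and -0.17 at the other 2 probes), Dnmt3b by 1.03 (2.04-fold) and Tet2 lower by 1.07 (2.10-fold), changes that sat at the 2-fold line. With spike-in scaling only Uhrf1 and Tet2 were called, and Dnmt1, Dnmt3a and Dnmt3b were higher by 0.48, 0.36 and 0.31. Of the 11 granulocytic genes 1 was called higher and 2 lower in Ter119, and of the 8 B cell genes 8 were higher. Of the 10 macrophage genes 9 were lower and 1 higher in Ter119, and of the 11 cell cycle genes 10 were higher, and their part in these differences was not tested. The fall from CFUe to Ter119 could be checked on the 1 slide that held both, where the difference was -3.60 for Dnmt3b, -1.18 for Dnmt1 and 1.27 for Dnmt3a. With the slide as a block the same changes were -3.72, -1.25 and 1.33. From CFUe to Ter119 11 of 11 granulocytic, 8 of 8 B cell and 10 of 10 macrophage genes rose too, where 57.2% of all probes were called. No slide held both Mac1Gr1 and GMP, both CFUe and GMP or both Ter119 and Mac1Gr1. Nor did any slide hold KLS with PreMegE or KLS with PreGM.

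Whether the 2 lineages moved differently was tested as a difference of steps. At the second step, CFUe minus PreMegE against GMP minus PreGM, only Tet2 was called (20.2% of probes), with a difference of -1.20 (SE 0.19, adjusted p = 0.000129). Tet2 was -0.96 on the erythroid side and 0.24 on the myeloid side. Its second probe gave -0.79 (adjusted p = 0.00903), which is under 2-fold, as was -0.86 with normexp background. At the third step, Ter119 minus CFUe against Mac1Gr1 minus GMP, 4 of 6 were called (39.9% of probes): Uhrf1 with 2.35 (SE 0.17, adjusted p = 4.98e-09), Dnmt3a with 1.77 (SE 0.19, adjusted p = 6.94e-07), Dnmt1 with 1.28 (SE 0.22, adjusted p = 0.000121; 0.97, under 2-fold, with slide as a block) and Dnmt3b with 1.24 (SE 0.20, adjusted p = 5.48e-05). For Uhrf1, Dnmt1 and Dnmt3b the fall was smaller on the erythroid side. For Dnmt3a the other 2 probes gave -0.26 and 0.35, neither called. Dnmt3b was under 2-fold with quantile scaling (0.84), normexp background (0.75) and the series table (0.82).

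Uhrf1 and Dnmt1 act at replicating DNA, so their levels were set beside 11 cell cycle genes with a matched probe. The mean level of that list was 2.51 to 2.60 in KLS, 2.73 to 2.84 in PreMegE, 3.55 to 3.86 in CFUe and 2.58 to 3.15 in Ter119. On the myeloid side it was 2.56 to 2.66 in PreGM, 3.22 to 3.29 in GMP and 0.96 to 1.08 in Mac1Gr1. All 11 fell from GMP to Mac1Gr1 (27.6% of all probes were called lower) and 7 from CFUe to Ter119 (28%). From PreMegE to CFUe 5 rose, where 24.7% of all probes were called in either direction. Since Mac1Gr1 and Ter119 form clusters of their own, correlations are given first within the 15 progenitor arrays, which still share 5 fractions: r was 0.76 for Uhrf1, 0.26 for Dnmt1, -0.92 for Dnmt3b, -0.76 for Dnmt3a, -0.48 for Tet2 and 0.02 for Tet3. Over all 21 arrays r was 0.94, 0.80, 0.58, 0.04, -0.71 and -0.002 in that order, with the opposite sign for Dnmt3b. In Ter119 the mean level of the list lay within the progenitor range, and Dnmt1 and Dnmt3b were below every progenitor array. Single genes of the list differed there. Mcm2 and Mcm5 had means below those of every progenitor fraction by more than the SD in Ter119. Mcm2 was at 2.29 against 3.19 in KLS, its lowest progenitor mean. Cdk1, Bub1 and Aurkb also had means below every progenitor mean, but by less than that SD. Bub1 was at 0.883 (SD 0.230) against 0.894 in PreGM. Mki67, at 6.93, and Ccnb2 had means above those of every progenitor fraction, Ccnb2 by less than its SD in Ter119. Whether the falls of Dnmt1 and Dnmt3b in Ter119 go with those of replication genes was not tested.

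**Figure D4:**
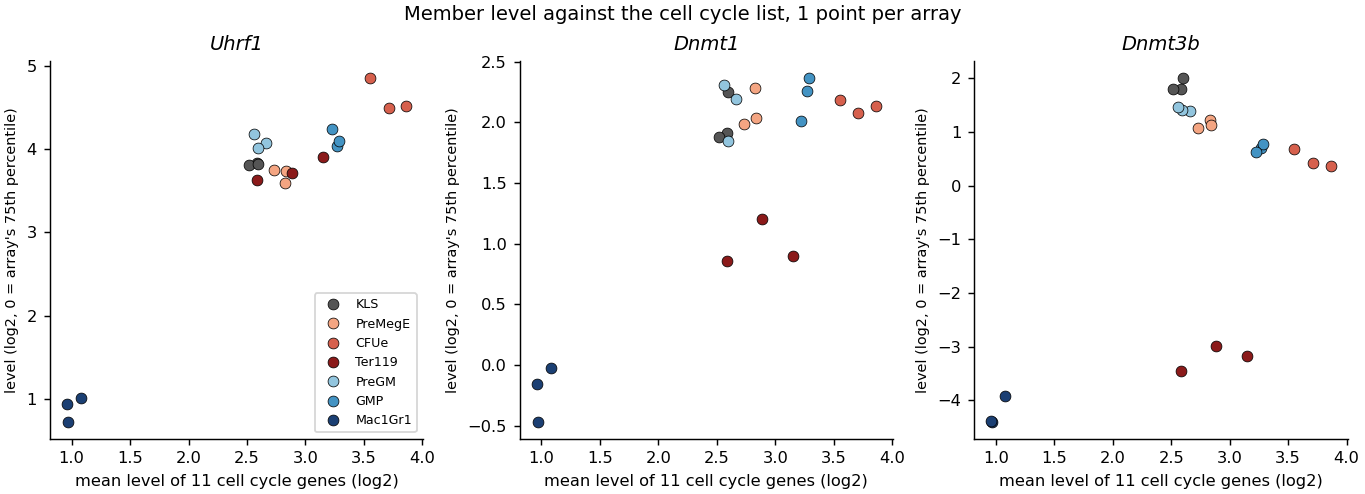
Level of Uhrf1, Dnmt1 and Dnmt3b (log2, 0 = the array's 75th percentile) against the mean level of 11 cell cycle genes, with 1 point per array coloured by fraction. CFUe sits at the highest cell cycle levels, 3.55 to 3.86, with the highest Uhrf1; in Dnmt3b the 15 progenitor arrays slope downward and the Ter119 and Mac1Gr1 arrays lie below -2.9.

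Across the 21 arrays the named genes with the pattern most like each member were sought among 13773 genes by Pearson's r. Closest to Dnmt1 were Xrcc3, a recombination protein (r = 0.994), Mcm6, a subunit of the replicative helicase, and Pold1, the catalytic subunit of DNA polymerase delta, with r of 0.79, 0.70 and 0.67 in the 15 progenitor arrays. Closest to Uhrf1 were Cenpk, a centromere protein (r = 0.986), Tyms-ps, a pseudogene of thymidylate synthase whose probe may read the parent gene, and Pcna, the replication clamp (r = 0.983), with 0.91, 0.87 and 0.89 among progenitors. Dnmt3b was matched most closely by Lzts2, Ttc3 and Tmem237 (r = 0.996, 0.995 and 0.995), each with a lower mean in CFUe than in KLS. For Tet2 the closest were Ggh, which removes glutamates from folate, Casz1, a zinc-finger factor, and Palm (r = 0.94, 0.94 and 0.93), all of them lowest in CFUe. The brightest Dnmt3a probe was nearest to Slc35b4, Rnf157 and Il21r (r = 0.95, 0.93 and 0.91), all of them highest in Ter119. For Tet3 the best match, C2cd5, reached 0.745.

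Around the 6 genes stands the wider machinery, given here as a list of 43 genes by role, of which 40 were tested and Dppa3, Neil2 and Cxxc4 were dim in every fraction. From KLS to PreMegE 1 gene rose and none fell (12.4% of all probes called), and from KLS to PreGM none was called (8.64%). From PreMegE to CFUe 5 rose and 5 fell (24.7%), and from PreGM to GMP 3 rose and 2 fell (10.4%). In the last step 9 rose and 19 fell from CFUe to Ter119, where 57.2% of all probes were called and 28% were lower, and 6 rose and 20 fell from GMP to Mac1Gr1, where these shares were 56.7% and 27.6%. With spike-in scaling those last counts were 2 and 28, and 1 and 33, beside 69.8% and 76.4% of all probes called in either direction. The median change over the list's roles ran from -3.03 for methyl donor genes to 0.90 for Tet partners in Ter119, beside a median of 0.05 over all tested probes.

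The 6 partners of maintenance methylation had a median of -1.09 from CFUe to Ter119, where Cdca7, Hells and Pcna fell, and of -2.40 from GMP to Mac1Gr1, where Hells, Pcna, Lig1, Cdca7 and Uhrf2 fell (medians over all probes 0.05 and 0.18). Hells, a chromatin remodeller needed for methylation of repeats, fell by 4.39 from GMP to Mac1Gr1 (SE 0.15, adjusted p = 7.57e-14) and by 1.21 from CFUe to Ter119. Lig1, the ligase that joins replicated strands, had a mean of 6.28 in Ter119 against 2.57 in Mac1Gr1 and was higher there by 3.71 (adjusted p = 1.46e-13). Usp7, a deubiquitinase that binds Dnmt1 and Uhrf1, was called in neither last step.

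Of the partners of de novo methylation, Dnmt3l, the catalytically inactive cofactor of Dnmt3a and Dnmt3b, rose by 1.87 from PreGM to GMP (SE 0.21, adjusted p = 4.44e-06), rose by 1.44 from GMP to Mac1Gr1, which became a lower value with spike-in scaling, and by 2.01 from CFUe to Ter119 (0.63 with spike-in scaling, not called). Its means were -3.31 in PreGM, -1.44 in GMP, -0.00 in Mac1Gr1 and -1.29 in Ter119. Trim28, the corepressor that recruits silencing to KRAB zinc-finger sites, fell by 3.48 from GMP to Mac1Gr1 (adjusted p = 8.78e-14) and fell by 2.39 from CFUe to Ter119.

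Among the 8 genes listed as readers of methylated DNA or their relatives, Mbd2, a methyl-CpG binder of the NuRD complex, rose by 1.25 from PreMegE to CFUe (0.73 with spike-in scaling, not called) and by 1.63 from GMP to Mac1Gr1, where spike-in scaling turned it lower. Its paralogue Mbd3, which sits in the alternative NuRD complex, fell by 2.43 from GMP to Mac1Gr1 (adjusted p = 2.84e-08) and by 2.68 from CFUe to Ter119 (adjusted p = 7.95e-09). Zbtb4, a zinc-finger reader, fell by 2.42 in GMP relative to PreGM (SE 0.12, adjusted p = 6.55e-10) and fell by 1.26 in CFUe relative to PreMegE. It rose again in each mature fraction, by 1.89 and 1.34, both of which turned lower with spike-in scaling. Zbtb33 and Zbtb38 were called in none of the 6 steps.

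Of the 12 tested genes of base excision, which removes the oxidised base, and demethylation, 7 fell and 4 rose from CFUe to Ter119. Among all probes 57.2% were called in that step and 28% were lower. From GMP to Mac1Gr1 4 fell, 1 rose and 7 were not called, beside 56.7% of all probes called and 27.6% lower. Tdg, the glycosylase that cuts out the bases made by the Tet enzymes, rose by 1.09 from PreMegE to CFUe (SE 0.19, adjusted p = 0.000154; 0.58 with spike-in scaling, not called), where Tet2 was lowest, and fell by 3.47 from CFUe to Ter119 (adjusted p = 3.86e-11). In Mac1Gr1 Tdg had a mean of 1.75 against 2.12 in GMP and was not called. Apex1, the abasic-site nuclease, fell by 5.03 from GMP to Mac1Gr1 (adjusted p = 8.73e-16) and by 3.72 from CFUe to Ter119. Gadd45a, a stress-inducible protein linked to demethylation, rose at 4 of the 6 steps, by 1.84 in PreMegE, 1.99 in Ter119, 2.28 in GMP and 2.38 in Mac1Gr1. With spike-in scaling its values in Ter119 and Mac1Gr1 were 0.61 and 0.35, neither called.

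**Figure D5:**
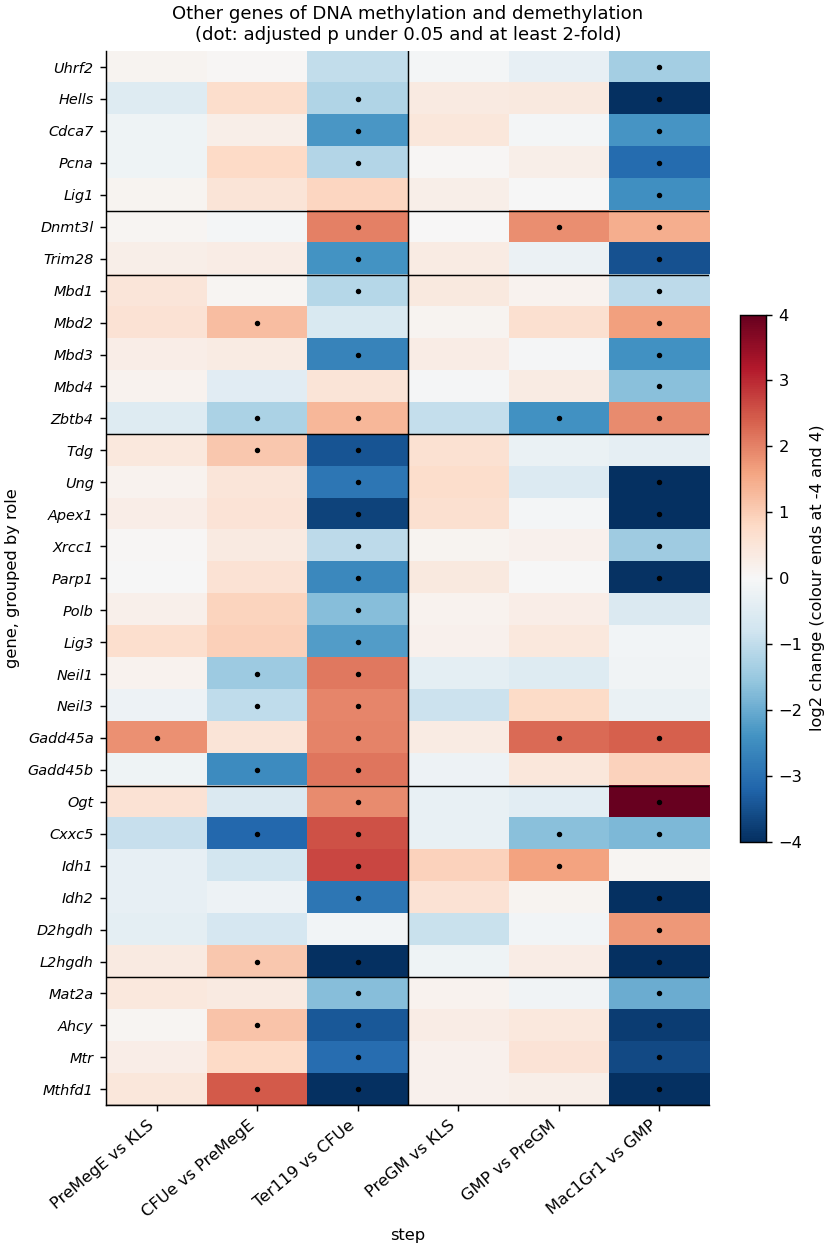
Log2 change at the 3 erythroid and 3 myeloid steps of the other genes of DNA methylation and demethylation that were called at 1 or more of these steps, grouped by role from top to bottom (maintenance partners, de novo partners, readers, base excision and demethylation, Tet partners and co-substrate, methyl donor genes); red is higher and blue lower in the later fraction, the colour ends at -4 and 4, and dots mark called genes. Calls gather at the last steps, with 9 higher and 19 lower in Ter119 and 6 higher and 20 lower in Mac1Gr1, counts that are 2 and 28 and 1 and 33 with spike-in scaling.

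Genes that supply or modify the Tet enzymes were called in both directions. Idh1 makes 2-oxoglutarate, the co-substrate of Tet enzymes, in the cytosol. It rose by 1.62 from PreGM to GMP (SE 0.22, adjusted p = 3.75e-05) and by 2.67 from CFUe to Ter119, and its difference between CFUe and GMP was -3.60 (adjusted p = 4.38e-10). Its mitochondrial counterpart Idh2 fell by 4.94 from GMP to Mac1Gr1 and by 2.89 from CFUe to Ter119. Cxxc5, a CXXC protein that binds Tet2, fell by 3.14 from PreMegE to CFUe (SE 0.27, adjusted p = 5.57e-08) and fell by 1.67 from PreGM to GMP (-0.65 with spike-in scaling, not called). Ogt, the glycosyltransferase that binds the Tet proteins, rose by 4.10 from GMP to Mac1Gr1 (adjusted p = 2.89e-14) and by 1.90 from CFUe to Ter119 (0.52 with spike-in scaling, not called).

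Genes of the methyl donor S-adenosylmethionine and its folate supply fell in both mature fractions, 4 of 5 in each (Mthfd1, Ahcy, Mtr and Mat2a). Of all probes 28% were called lower in Ter119 against CFUe and 27.6% in Mac1Gr1 against GMP. Mthfd1, a folate enzyme, rose by 2.45 from PreMegE to CFUe (SE 0.14, adjusted p = 6.98e-10), to a mean of 6.14, and then fell by 6.04 to Ter119 (adjusted p = 2.33e-15). Ahcy, which clears the product of methyl transfer, rose by 1.15 into CFUe (0.63 with spike-in scaling, not called) and fell by 3.40 into Ter119. From KLS to CFUe 4 of the 5 were called higher (36.3% of all probes called), with a median of 1.23 against 0.23 over all tested probes. With spike-in scaling only Mthfd1 (1.93) was called there, and Ahcy, Mtr and Mat2b were 0.25, 0.09 and 0.41. None of the 5 was called from KLS to GMP, where 21.7% of all probes were.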

How the data were processed

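Total RNA of 21 sorted bone marrow samples was labelled with Cy3 and hybridised to 1-colour arrays by the authors. The deposited scanner files of Feature Extraction 10.7.1.1 hold intensity per spot, background-corrected by that software, and the authors' series table holds log2 values, whose rank correlation with the scanner values was at least 0.9998 on every array. Here log2 of the processed signal minus the array's 75th percentile was used, after leaving out control spots and outlier spots (80 to 283 per array). Probes were named through their RefSeq accession, 26690 of 41174 (64.8%) with a symbol. Coordinates of the array's own annotation (mm9) were not used.

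The 29538 probes that were well above background on each array of some fraction were fitted with limma 3.58.1 in R 4.3.3 (1 mean per fraction, 21 arrays, 14 residual degrees of freedom), and Benjamini-Hochberg adjustment ran over all of them. A called probe had an adjusted p under 0.05 and at least 2-fold. The number of arrays limits the precision, with a median residual SD of 0.262. Comparisons were the 6 steps, fractions of equal rank, the committed progenitors against KLS and the differences between lineages. The scripts were tested on simulated data. Genes are named by membership, and like patterns are the 3 genes with the highest Pearson's r.

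Members and gene lists were chosen with earlier results of these data known. Alternatives were quantile and spike-in scaling, normexp background (offset 50), the series table, no filter, no minimum fold, other probes, slide, replicate and sex blocks, leaving out each array, and fitting only the fractions compared. Some values of single genes are not reported here.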

Additional observations from a re-analysis of the deposited data

Results flagged for a closer look

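Steps that differed between the erythroid and the myeloid side by a test of the difference itself were marked for a closer look. At the second step (CFUe minus PreMegE against GMP minus PreGM) this was Tet2, with a difference of -1.20 and an adjusted p of 0.000129 in limma. It was under 2-fold at the second Tet2 probe (-0.79) and with normexp background (-0.86). At the third step (Ter119 minus CFUe against Mac1Gr1 minus GMP) these were Uhrf1 with 2.35, Dnmt3a with 1.77, Dnmt1 with 1.28 and Dnmt3b with 1.24, with adjusted p from 4.98e-09 to 0.000121. The Dnmt3a value is that of the brightest probe, and the other 2 probes gave -0.26 and 0.35, neither called. Dnmt3b was under 2-fold with quantile scaling (0.84), normexp background (0.75) and the series table (0.82), and Dnmt1 with the slide as a block (0.97). Granulocytic markers stood at 6.84 to 6.94 in Ter119 and 7.34 to 7.51 in Mac1Gr1. In the third-step difference 6 of 11 granulocytic, 4 of 8 B cell and 4 of 10 macrophage genes were called higher. So were 9 of 11 cell cycle genes, and none of these 4 lists had a gene called lower (39.9% of all probes called). The part of these genes in the differences was not tested.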

How the results depend on the processing

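Leaving out 1 array at a time gave 540 values, of which 534 kept their side of the threshold. No called value turned sign, and 20 values called neither way did. The count of the 6 genes called ranged from 0 to 1 in CFUe against PreMegE (Tet2, -1.01 without CFUe replicate 1), from 1 to 2 in CFUe against KLS (Dnmt3a, -1.03 without KLS replicate 2) and from 3 to 5 in Ter119 against Mac1Gr1 (3 without Ter119 replicate 2). Of 858 values under the other alternatives 766 kept their side of the threshold (63 of them, called neither way, turned sign), 22 lost and 60 gained the call in the same direction, and 10 reversed, counting those called before or after. The cause was not tested except where the alternative itself sets it.

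Among values so called, spike-in scaling reversed Dnmt3a (-0.071) and Tet3 (-1.29) in Ter119 against CFUe, Tet2 (-1.68) in Mac1Gr1 against GMP and Dnmt3b (-1.45) in the second-step difference. Among values called neither way it also turned, with others, Uhrf1 in CFUe against KLS (-0.18), CFUe against GMP (-0.88) and the second-step difference (-0.64), Tet2 in Ter119 against CFUe (-0.55) and Dnmt3b in GMP against PreGM (0.28). Other probes reversed Dnmt3a in Ter119 against CFUe (-0.26 and -1.17), in Ter119 against Mac1Gr1 (-0.56 and -0.17) and in the third-step difference (-0.26), and Tet3 in Mac1Gr1 against GMP (1.34).

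Counts of genes called that moved by more than 1.5 times were as follows. With spike-in scaling they were 1 in PreMegE against KLS, 2 in CFUe against PreMegE, 1 in PreGM against KLS, 4 in GMP against PreGM, 6 in Mac1Gr1 against GMP, 5 in CFUe against GMP, 2 in Ter119 against Mac1Gr1, 4 in CFUe against KLS and 5 in the second-step difference. Of all tested probes 15.2%, 27.2%, 19%, 49.2%, 76.4%, 59.7%, 49.1%, 41.3% and 64.8% were then called in these comparisons, in that order. With no minimum fold they were, in the same comparisons up to CFUe against GMP, 2, 4, 2, 1, 5 and 3, with 5 in Ter119 against CFUe, 2 in PreMegE against PreGM, 4 in CFUe against KLS, 3 in GMP against KLS and 3 in the second-step difference. Of all probes 26.2% passed then in PreMegE against KLS, 50.9% in CFUe against PreMegE and 25.7% in PreGM against KLS. The shares were 26.3% in GMP against PreGM and 27.5% in PreMegE against PreGM. With the second-brightest probe they were 1 in CFUe against PreMegE, 5 in Ter119 against CFUe, 3 in Ter119 against Mac1Gr1, 2 in CFUe against KLS and 0 in the second-step difference. The slide block gave 1 in CFUe against PreMegE. The sex-chromosome block gave 1 there, 3 in Ter119 against Mac1Gr1 and 0 in GMP against KLS. Normexp gave 2 in Ter119 against Mac1Gr1 and 0 in the second-step difference, and quantile scaling and the series table each 2 in CFUe against KLS. Over the alternatives beside leaving out arrays, Ter119 against CFUe ranged from 2 (quantile scaling and the series table) to 5 and the third-step difference from 3 to 5. For the other counts under these alternatives, and with 1 array left out, no share over all probes is given. They are therefore not set against probes in general.

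The replicate block changed no count, with 3 in Ter119 against CFUe as without it. Deviations of same-numbered arrays had a median correlation of 0.002 (63 pairs, -0.431 to 0.367, 21 over 0.1). For differently numbered arrays the median was 0.007 (126 pairs, 31 over 0.1). With 3 arrays per fraction these values cannot decide whether the numbers pair the samples. Arrays of the same slide had a median of 0.117 (15 pairs, 8 over 0.1), and the main fit had no term for the slide. Dnmt3b in Mac1Gr1 was below background on 1 array, and with normexp background its falls were -2.17 to Ter119 and -2.91 to Mac1Gr1, against -3.69 and -4.93.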
